A study of Mus musculus with 14 samples.

Results

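The genes of the mouse major histocompatibility complex (MHC) and of its antigen presentation machinery were described in 14 hearts of WT mice. The members are the protein-coding genes whose symbol begins with H2-, with B2m, Cd74, Tap1, Tap2, Tapbp, Nlrc5 and Ciita added, which gave 41 of the 56748 genes in each file. They comprise 24 class I heavy chains (2 classical and 22 nonclassical), 4 genes of the class I light chain and peptide loading, 10 class II genes and 2 regulators. H2-Ke6 carries the prefix because of where it lies, and encodes an enzyme of steroid and fatty acid metabolism rather than an MHC protein.

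RNA-Seq was made from polyadenylated RNA of heart tissue, 1 library per mouse, as part of a study of a doxycycline-inducible frataxin knockdown. The groups carry the labels WT_B (mice 4, 5, 7, 8 and 9), WT_F (mice 28 to 32) and WT_A (mice 22, 23, 24 and 26). All 14 are C57BL6J mice without the knockdown and without drug treatment, and all were fed doxycycline chow for 16 to 20 weeks according to the labels. The study's methods give a longer span on doxycycline for part of the animals, females among them, and do not tie it to these labels. Neither the sex nor the cohort of a mouse is written out in the labels, so the groups are called by their labels. Xist, which is transcribed from the inactive X chromosome, was at 1.23 to 4.97 FPKM in WT_F hearts and at no more than 0.0122 FPKM in the other hearts. Sex, weeks on doxycycline and group therefore cannot be told apart in comparisons with WT_F. Cohort and exact weeks on doxycycline are not given per mouse, so neither can be told apart from group between WT_B and WT_A. Each mouse is a separate animal, and the knockdown libraries are not analysed here.

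Class I molecules pair a polymorphic heavy chain with the light chain beta-2-microglobulin and present peptides from the cytosol on nearly all nucleated cells, endothelium included. The peptides are cut by the proteasome, pumped into the endoplasmic reticulum by the transporter TAP and loaded with the help of tapasin. Class II molecules are pairs of an alpha and a beta chain on dendritic cells, B cells and part of the macrophages; in the resting heart, resident macrophages are a known class II source. The invariant chain Cd74 guards the class II groove until H2-DM exchanges its last fragment for a peptide. Nlrc5 is the transactivator of class I genes and Ciita that of class II genes, and both act through a promoter module that is bound by RFX, CREB and NF-Y factors.

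The promoters of some class I and class II members are printed so that the classes can be compared. Each is the 190 bases before the gene start, 5′ to 3′, from RefSeq on GRCm38.p6, which is an older build than the GRCm39 of the deposited files. Capitals mark 4 motifs searched on both strands: GGGGATTCC (kappaB), GAAGTGAAA (interferon response), TGACG (the core of a CREB site) and ATTGG (the core bound by NF-Y). The class I heavy chains H2-K1 and H2-D1, the liver-secreted class I gene H2-Q10 and the light chain gene B2m read as follows.
H2-K1 (chr17:34000348-34000537, minus strand): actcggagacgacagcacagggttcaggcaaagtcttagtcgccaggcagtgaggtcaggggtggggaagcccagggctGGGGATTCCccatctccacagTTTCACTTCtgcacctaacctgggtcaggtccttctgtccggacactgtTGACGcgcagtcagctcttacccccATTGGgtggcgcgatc
H2-D1 (chr17:35262904-35263093, plus strand): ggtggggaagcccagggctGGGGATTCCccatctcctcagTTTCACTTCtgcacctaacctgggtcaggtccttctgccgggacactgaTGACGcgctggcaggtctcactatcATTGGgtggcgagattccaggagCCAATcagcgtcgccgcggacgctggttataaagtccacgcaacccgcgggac
H2-Q10 (chr17:35469899-35470088, plus strand): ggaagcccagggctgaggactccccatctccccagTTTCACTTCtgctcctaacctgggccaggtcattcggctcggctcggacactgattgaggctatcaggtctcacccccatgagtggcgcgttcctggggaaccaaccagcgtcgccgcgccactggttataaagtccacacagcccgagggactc
B2m (chr2:122147497-122147686, plus strand): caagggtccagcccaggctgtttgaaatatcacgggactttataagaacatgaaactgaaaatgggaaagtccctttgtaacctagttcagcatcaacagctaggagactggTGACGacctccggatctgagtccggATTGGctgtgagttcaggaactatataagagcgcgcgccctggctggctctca
The alpha chain gene H2-Aa and the beta chain gene H2-Eb1 of class II read as follows.
H2-Aa (chr17:34287824-34288013, minus strand): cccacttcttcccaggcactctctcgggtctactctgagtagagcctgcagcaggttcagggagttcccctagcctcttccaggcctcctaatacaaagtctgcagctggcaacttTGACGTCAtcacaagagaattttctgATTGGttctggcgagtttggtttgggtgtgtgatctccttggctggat
H2-Eb1 (chr17:34305677-34305866, plus strand): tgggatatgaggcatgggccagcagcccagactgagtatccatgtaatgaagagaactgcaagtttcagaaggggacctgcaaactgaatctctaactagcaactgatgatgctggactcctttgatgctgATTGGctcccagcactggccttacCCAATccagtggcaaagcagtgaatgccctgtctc

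A promoter entry was found for 34 of the 41 members, and the first was taken where a gene had several. None was found for H2-Ab1, Cd74, Nlrc5 or Ciita, and that of H2-T22 is not printed. Motifs were counted over entries of 250 bases before the start and 50 after it, which are longer than the printed 190 bases. GGGGATTCC was in 4 of the 34 (H2-K1, H2-D1, H2-Q6 and H2-Q7), against 0.25% of the 32851 promoters in the table. GAAGTGAAA was in 7 of the 34 (the same 4, H2-Q4, H2-Q10 and H2-M3), against 0.505% of all promoters. These promoters are near copies of each other in part, so the matches are not independent. In H2-K1 the kappaB letters begin 111 bases before the start, and in H2-D1 171 bases before it; the same block of letters lies at different distances from the annotated starts. TGACG was in 14 of the 34 and in 20.8% of all promoters, and ATTGG was in 30 of the 34 and in 37.4% of all. In H2-Aa, TGACG and its reverse complement overlap. The H2-Q10 window held the interferon response letters and none of the other 3 motifs. A match is a description of the letters and not evidence of a bound site.

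Some libraries stood apart, and this touches the results below. Mitochondrially encoded genes took 33.8% to 52.02% of the summed FPKM in WT_B hearts, 2.42% to 17.2% in WT_F hearts apart from mouse 28 (49.99%), and 1.93% to 6.63% in WT_A hearts apart from mouse 22 (50.96%). The library of WT_A mouse 24 had 4235 FPKM of the atrial light chain Myl7 and 82.1 FPKM of the ventricular light chain Myl2, where the other 13 had at most 2.003 FPKM of Myl7 and at least 2226 FPKM of Myl2. Depth, recovered from the steps between low FPKM values, was 16816200 to 31990600 fragments per library. Results that rest on mice 22, 24 and 28 are given with and without them.

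Of the 41 members, 16 reached a mean of 1 FPKM over the 14 hearts, 17 lay below that mean and above 0, and 8 were listed at 0 in every library. FPKM is scaled to annotated gene length, so levels can be set side by side between genes only as far as that length fits the transcripts made. Over the 14 hearts, H2-Aa (3798 bases) had 8520 recovered fragments and H2-Ab1 (2568 bases) had 8101, though H2-Ab1 had the higher FPKM. The 8 at 0 were H2-M1, H2-M9, H2-M10.1, H2-M10.2, H2-M10.3, H2-M10.4, H2-M10.5 and H2-M10.6, all nonclassical class I genes of the M region, whose M10 family is known for expression in the vomeronasal organ. Apart from H2-Q10, the 17 low members were at no more than 1.55 FPKM in any heart.

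**Figure D1:**
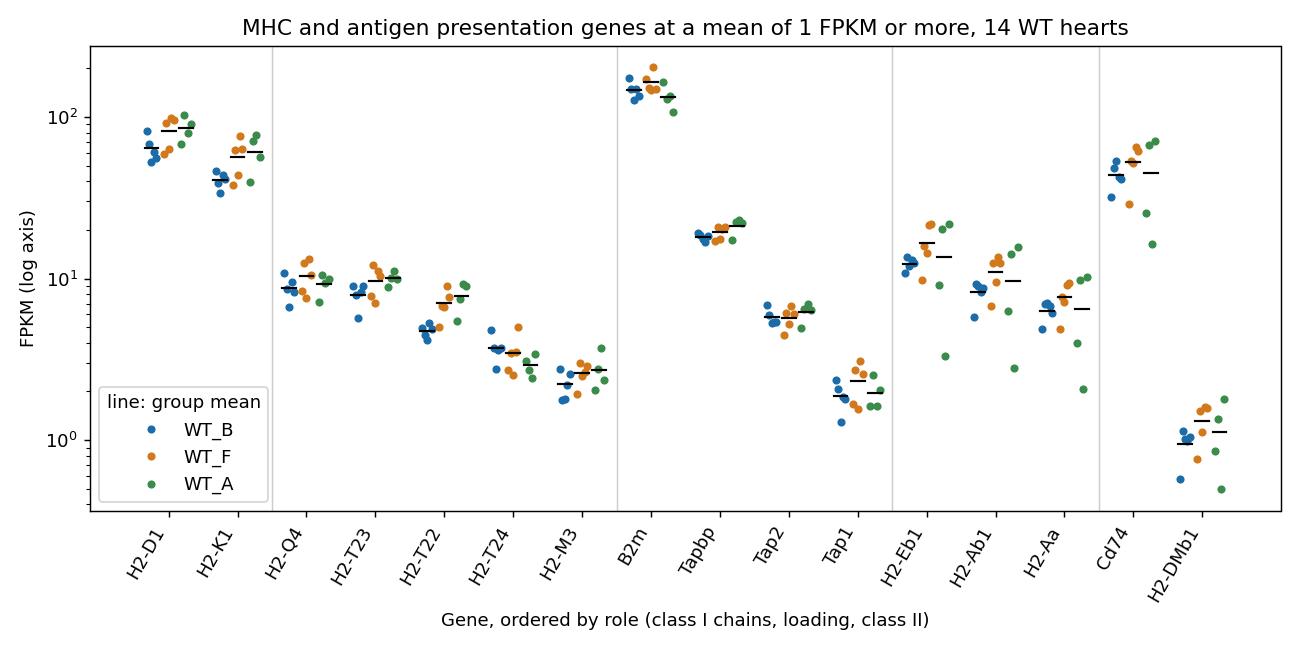
FPKM (log axis) of the 16 members with a mean of at least 1 FPKM, with 1 point per heart, group means as lines, and groups in the order WT_B, WT_F and WT_A. B2m and the classical class I chains lie highest, and the 5 class II genes spread most widely in WT_A.

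B2m, the class I light chain, had the highest level of all members. Its FPKM were 175, 149, 127, 150 and 136 in WT_B hearts, 172, 151, 148, 204 and 149 in WT_F hearts, and 164, 129, 134 and 108 in WT_A hearts. The groups overlapped, and the highest heart was WT_F mouse 31. The mean was 147 ± 18.0 FPKM in WT_B (SD, n = 5), 165 ± 23.9 in WT_F (SD, n = 5) and 134 ± 23.3 in WT_A (SD, n = 4).

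The classical heavy chains H2-D1 and H2-K1, which present peptides to CD8 T cells, came next. H2-D1 had 82.4, 67.8, 52.7, 61.0 and 55.6 FPKM in WT_B hearts, 59.4, 92.0, 63.7, 99.0 and 96.2 FPKM in WT_F hearts, and 67.8, 103, 80.1 and 90.9 FPKM in WT_A hearts. H2-K1 had 46.1, 38.9, 33.9, 43.9 and 41.4 FPKM in WT_B hearts, 38.1, 62.3, 43.7, 76.8 and 63.0 FPKM in WT_F hearts, and 39.4, 71.0, 77.6 and 56.5 FPKM in WT_A hearts. Most WT_B hearts lay in the lower part of the range for both, together with WT_F mice 28 and 30 and WT_A mouse 22. H2-D1 was above H2-K1 in 14 of 14 hearts, by 1.03 to 1.79 times. The pair made up 76.9% to 83.0% of the summed FPKM of the class I heavy chains. Fragments may be shared between the near-identical heavy chains, so the split between them is uncertain.

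Of the 22 nonclassical class I genes, 5 reached a mean of 1 FPKM. H2-Q4 ranged from 6.66 to 13.1 FPKM over the 14 hearts. H2-T23, which encodes Qa-1, the ligand of the NK receptor CD94/NKG2A, ranged from 5.73 to 12.1 FPKM. H2-T24 lay at 2.44 to 5.02 FPKM, and H2-M3, which presents N-formylated peptides, at 1.78 to 3.73 FPKM. These 4 genes overlapped between all groups.

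Between WT_B and WT_A hearts, 1 of 18 members tested was free of overlap, a share no higher than the 6.91% of all genes tested. This member was H2-T22, whose product is bound by some gamma-delta T cells. It had 4.95, 4.46, 4.18, 5.27 and 4.85 FPKM in WT_B hearts, 5.03, 6.75, 6.71, 8.999 and 7.66 FPKM in WT_F hearts, and 5.45, 7.49, 9.29 and 8.99 FPKM in WT_A hearts. All WT_B hearts lay below all WT_A hearts, and WT_F mouse 28 lay within the WT_B range. Over the 7 hearts with a mitochondrial percent above 30 it was 4.18 to 5.45 FPKM, and over the 7 others 6.71 to 9.29 FPKM. The part of the mitochondrial percent in this pattern was not tested. H2-T22 may share fragments with its near copy H2-T10.

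In the loading machinery, tapasin (Tapbp) was at 16.8 to 23.05 FPKM. The subunits of the transporter differed in level, with Tap2 at 4.47 to 6.99 FPKM and Tap1 at 1.30 to 3.10 FPKM. Tap2 exceeded Tap1 by 2.19 to 4.32 times within a heart. The class I transactivator Nlrc5 was at 0.342 to 1.01 FPKM, from 53 to 212 fragments per library.

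Among the members with a mean of at least 1 FPKM, the 5 class II genes varied 3.61 to 6.64 times between the lowest and the highest heart, and the 7 class I heavy chains 1.96 to 2.29 times. Of the low heavy chains, H2-Q6 (mean 0.624 FPKM) varied 8.53 times and H2-Q7 (mean 0.519 FPKM) 6.10 times. H2-Ab1, the beta chain of I-A, had 5.79, 9.22, 8.94, 8.28 and 8.79 FPKM in WT_B hearts, 6.81, 12.4, 9.52, 13.6 and 12.5 FPKM in WT_F hearts, and 6.31, 14.1, 2.80 and 15.6 FPKM in WT_A hearts. The lowest heart and the 2 highest were all in WT_A, and the lowest was the library with the atrial light chain. H2-Aa, its alpha chain partner, was at 4.84 to 7.01 FPKM in WT_B, 4.84 to 9.41 FPKM in WT_F and 2.07 to 10.2 FPKM in WT_A. H2-Eb1, the beta chain of I-E, was at 10.9 to 13.6 FPKM in WT_B, 9.74 to 21.9 FPKM in WT_F and 3.30 to 21.8 FPKM in WT_A.

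Cd74, the invariant chain, was the most abundant class II gene. It had 32.1, 48.5, 53.2, 42.5 and 41.5 FPKM in WT_B hearts, 29.1, 53.2, 52.2, 65.5 and 61.4 FPKM in WT_F hearts, and 25.5, 67.5, 16.3 and 70.5 FPKM in WT_A hearts. As for H2-Ab1, both ends of the range were WT_A hearts. The peptide exchange factor chains H2-DMb1 and H2-DMa were far lower, at 0.495 to 1.79 FPKM and 0.461 to 1.55 FPKM. Ciita, the class II transactivator, was at 0.0524 to 0.277 FPKM, from 12 to 66 fragments per library. H2-Oa and H2-Ob, which restrain H2-DM in B cells, were at no more than 0.114 and 0.24 FPKM.

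Ratios between class II genes were taken within each heart. The ratio of H2-Ab1 to H2-Aa was 1.197 to 1.62, that of H2-Eb1 to H2-Ab1 was 1.18 to 1.87, and that of Cd74 to H2-Ab1 was 4.04 to 5.95 over the 14 hearts. The ratio of H2-DMb1 to H2-Ab1 was 0.0951 to 0.177, and that of H2-DMa to H2-Ab1 was 0.0524 to 0.172, a spread of 3.28 times with WT_A mouse 24 at the upper end. These ratios do not depend on the scaling of a library. Their size does depend on the annotated gene lengths. Summed over the class II chains, the level ranged from 8.17 to 47.5 FPKM, a spread of 5.82 times. Summed over the class I heavy chains it ranged from 108 to 217 FPKM, a spread of 2.004 times.

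**Figure D2:**
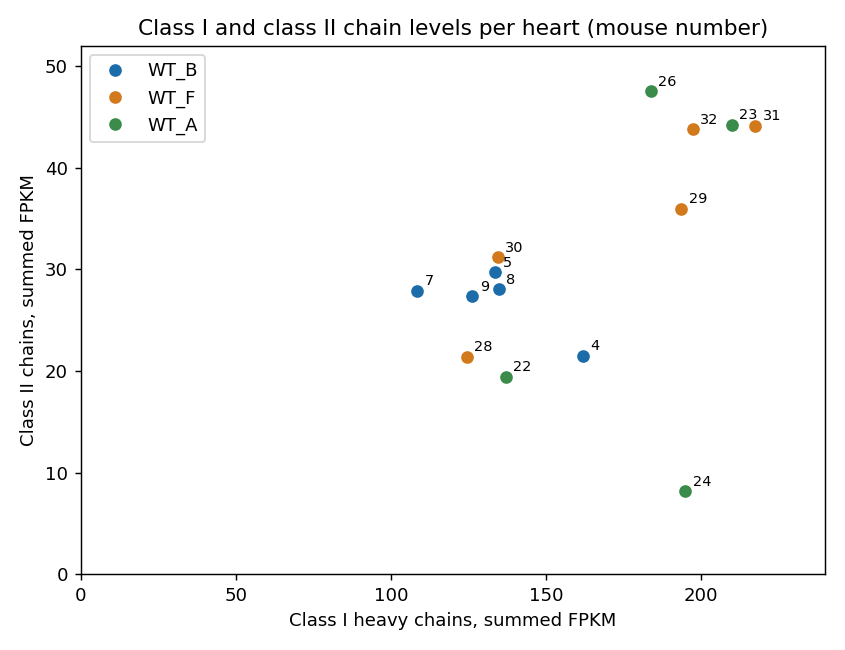
Summed FPKM of the class II chains against that of the class I heavy chains, with 1 point per heart and the mouse number beside it. WT_A mouse 24 lies alone at 195 FPKM of class I and 8.17 FPKM of class II.

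Class I heavy chains exceeded class II chains by 3.88 to 7.53 times in WT_B hearts, 4.31 to 5.81 times in WT_F hearts and 3.86 to 23.8 times in WT_A hearts. The value of 23.8 was that of mouse 24, and without it the WT_A hearts lay at 3.86 to 7.05. That library had the lowest Cd74, H2-Aa, H2-Ab1, H2-Eb1 and H2-DMb1 of all 14, and also the lowest H2-T24, a class I gene. It had the highest H2-K1, H2-T22, H2-M3, tapasin and Tap2. Its 14 macrophage markers summed to 172 FPKM, within the 148 to 270 FPKM of the other hearts. Its 11 endothelial markers summed to 474 FPKM, above the 227 to 395 FPKM of the others, with Pecam1 at 67.2 FPKM. Its 9 dendritic cell markers summed to 1.73 FPKM, below the 2.41 to 4.31 FPKM of the others. Only 1 of these 9 had a mean of 1 FPKM or more, Zbtb46, which endothelium also expresses. The part of these cell types in the ratio was not tested.

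Whether the balance of class II to class I differed between the groups was tested on 2 ratios, each in all 3 comparisons (6 tests, exact two-sided permutation tests). The comparisons share hearts. The mean log2 ratio of H2-Ab1 to H2-K1 was -2.33 ± 0.41 in WT_B, -2.37 ± 0.13 in WT_F and -2.90 ± 1.30 in WT_A (SD, n = 5, 5 and 4). The difference was 0.54 for WT_F over WT_A (exact p = 0.548), 0.58 for WT_B over WT_A (exact p = 0.46) and 0.04 for WT_B over WT_F (exact p = 0.849). For Cd74 to B2m, the difference was 0.12 for WT_F over WT_A (exact p = 0.841), 0.05 for WT_B over WT_A (exact p = 0.96) and -0.07 for WT_B over WT_F (exact p = 0.754). The adjusted p was 0.96 in all 6, with 0.00794 as the smallest p the design allows. None of the 6 differences passed the threshold of 0.05. For Cd74 to B2m the SD of the log2 ratio was 0.43 in WT_B, 0.50 in WT_F and 1.22 in WT_A. The SD in WT_A, 1.30 for the first ratio and 1.22 for the second, limits what its comparisons can show for both.

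Leaving out single hearts turned the direction of some of these differences. Without WT_A mouse 24, the log2 ratio of H2-Ab1 to H2-K1 differed by -0.09 for WT_F over WT_A (exact p = 0.589) and by -0.05 for WT_B over WT_A (exact p = 0.875). Without mice 22, 24 and 28, the log2 ratio of Cd74 to B2m differed by -0.999 for WT_B over WT_A (exact unadjusted p = 0.0476, the smallest that 5 against 2 hearts allow).

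The ratio of light chain to heavy chain varied by 2.61 times between hearts. The ratio of B2m to H2-K1 was 3.79, 3.83, 3.76, 3.41 and 3.27 in WT_B hearts, 4.51, 2.43, 3.38, 2.65 and 2.37 in WT_F hearts, and 4.16, 1.81, 1.73 and 1.91 in WT_A hearts. The highest WT_F and WT_A hearts were mice 28 and 22, which have the highest mitochondrial percent of their groups. Over the 7 hearts with a mitochondrial percent above 30 the ratio was 3.27 to 4.51, and over the 7 others it was 1.73 to 3.38. This pattern was noticed in the data, is given as a description, and the part of the mitochondrial percent in it was not tested.

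**Figure D3:**
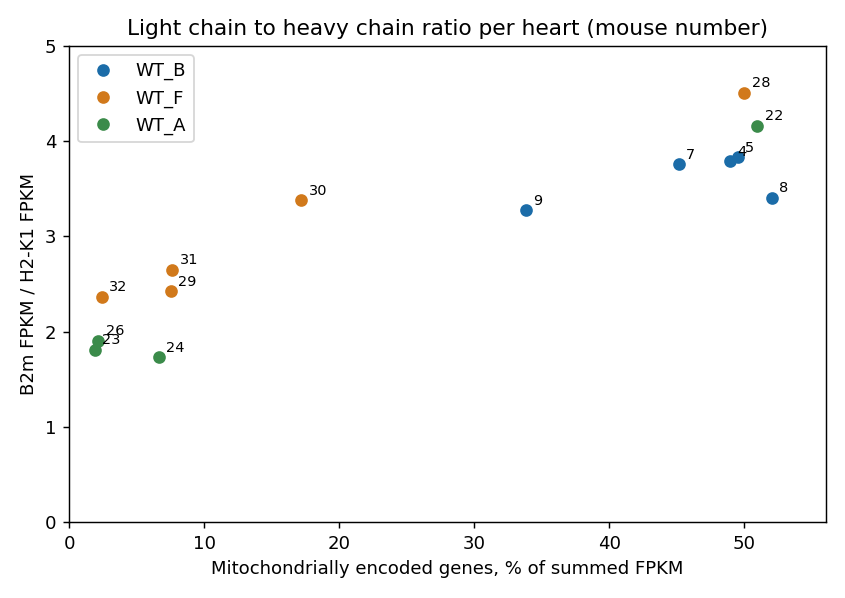
Ratio of B2m FPKM to H2-K1 FPKM against the percent of summed FPKM from mitochondrially encoded genes, with 1 point per heart. All 5 WT_B hearts, WT_F mouse 28 and WT_A mouse 22 lie to the right, at ratios of 3.27 to 4.51.

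Each member was then compared between the groups with limma on log2(FPKM + 1), fitted on every gene that reached 0.5 FPKM in 4 or more of the hearts compared, with adjustment over all of them. Fold changes on this scale understate those of low genes. In WT_F over WT_A, 0 of 19 members tested were called, against 0.024% of the 12483 genes tested, and 0 members had an unadjusted p under 0.05, against 3.85% of all genes. In WT_B over WT_A, 0 of 18 were called, against 0.322% of 12745 genes. An unadjusted p under 0.05 was found for 4 of the 18, against 22.5% of all genes. In WT_B over WT_F, 0 of 20 were called, against 1.61% of 12894 genes, and 4 of the 20 had an unadjusted p under 0.05, against 25.8% of all genes. In both, the share of members with an unadjusted p under 0.05 was no higher than that of all genes, and the values of these members are given as a description. With voom on recovered fragments the count of members called was also 0 in all 3 comparisons.

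Among these members in WT_B over WT_A, H2-T22 differed by -0.60 (SE 0.14, limma adjusted p = 0.0922), H2-K1 by -0.53 (SE 0.19, adjusted p = 0.161), H2-D1 by -0.42 (SE 0.17, adjusted p = 0.19) and H2-T23 by -0.31 (SE 0.13, adjusted p = 0.208). The median over 8 class I heavy chains tested was -0.32 and that over 6 class II genes was 0.07, beside -0.04 over all genes. With libraries scaled to equal sums of nuclear-encoded genes, these medians were -0.21 and 0.22, beside 0.08 over all genes. H2-T22 was the 1 of 18 members whose groups did not overlap, against 6.91% of all genes tested.

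In WT_B over WT_F they were H2-T22 at -0.47 (SE 0.12, limma adjusted p = 0.064), H2-K1 at -0.43 (SE 0.17, adjusted p = 0.155), H2-DMa at -0.27 (SE 0.11, adjusted p = 0.165) and the nonclassical H2-Q6 at -0.27 (SE 0.12, adjusted p = 0.177). H2-Ab1 stood at -0.36 (adjusted p = 0.218). No member was free of overlap here, against 5.23% of all genes. In WT_F over WT_A, B2m differed by 0.30 and H2-Ab1 by 0.35 (adjusted p = 1.00 for both), and no member was free of overlap, against 1.56% of all genes.

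Without mice 22, 24 and 28, 4 of 6 class II genes tested were called in each of the comparisons of WT_B and 0 in WT_F over WT_A. In WT_B over WT_A, 9 of 18 members were called and all 9 were lower in WT_B, where 16.7% of the 12448 genes were called lower and 33.8% called in either direction. They were the class I chains H2-T22, H2-K1, H2-D1 and H2-Q6, tapasin, and the class II genes H2-Ab1, H2-Eb1, H2-Aa and Cd74. In WT_A this fit keeps 2 hearts, mice 23 and 26, which had the 2 highest values of H2-Ab1, H2-Aa and Cd74 among all 14. Mouse 24, which is left out, had the lowest values of these genes. H2-Ab1 fell by 0.80 on the log2 scale (adjusted p = 0.00653), where it differed by -0.01 with all mice (adjusted p = 0.995). Without mouse 24 alone it differed by -0.43 (limma adjusted p = 0.314). In WT_B over WT_F, 6 of 19 were called and all 6 were lower in WT_B, where 9.31% of 12764 genes were called lower and 20.7% in either direction. They were H2-T22, H2-K1, H2-Eb1, H2-Ab1, H2-Aa and H2-DMb1, and this fit leaves out mouse 28 alone. In WT_F over WT_A, 0 of 19 members were called.

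**Figure D4:**
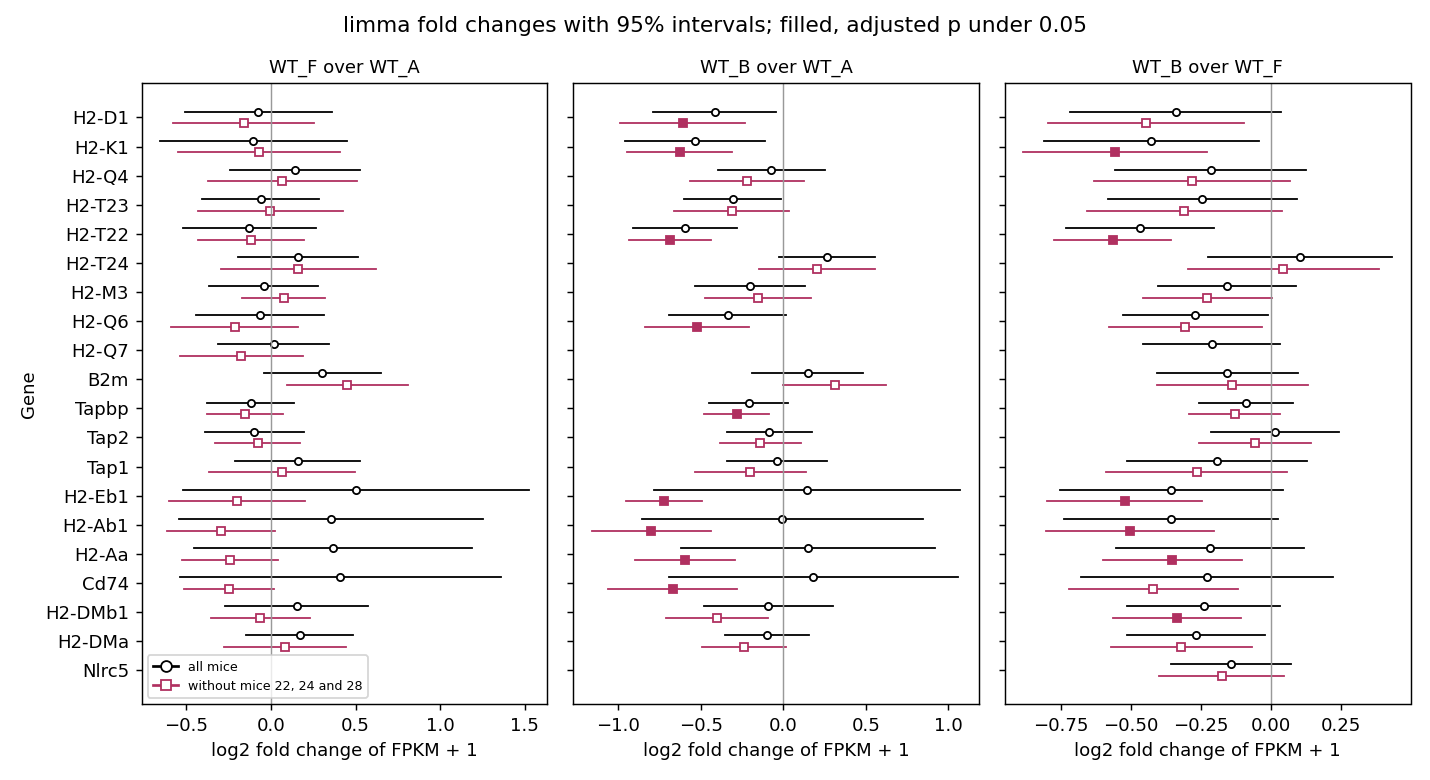
log2 fold changes of FPKM + 1 with 95% intervals for each member tested, with all mice (black circles) and without mice 22, 24 and 28 (red squares); filled symbols have an adjusted p under 0.05. No black symbol is filled, and 9 red ones are filled in WT_B over WT_A and 6 in WT_B over WT_F.

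Leaving out WT_A mouse 22 alone gave 4 calls among the 18 members of WT_B over WT_A, all lower in WT_B, where 7.37% of all genes were called lower and 19% in either direction. Leaving out mouse 24 alone gave 0. Once mice 22 and 28 are left out, every WT_B heart has a higher mitochondrial percent than every heart it is compared with, and group and mitochondrial percent cannot be told apart. With all mice no member was called, so a covariate had no call to remove. With the log2 of the mitochondrial percent added to that fit, H2-T22 differed by -0.30, H2-K1 by -0.13 and H2-Ab1 by 0.72 in WT_B over WT_A, where they differed by -0.60, -0.53 and -0.01 without it. In these bulk samples, fewer cells of a type and less RNA per cell also cannot be told apart.

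The cells that carry class II were represented unevenly among the markers. Of 14 macrophage markers 10 had a mean of 1 FPKM or more, and their sum was 148 to 192 FPKM in WT_B, 151 to 236 FPKM in WT_F and 172 to 270 FPKM in WT_A. Of 9 dendritic cell markers 1 did (Zbtb46, which endothelium also expresses), of 8 B cell markers 2, and of 10 T and NK cell markers 0. The 8 B cell markers summed to 3.34 to 6.34 FPKM over the 14 hearts, and Ighm and Blk were the 2 high enough to be tested. The 10 T and NK cell markers summed to 0.34 to 1.64 FPKM. As single genes of these lists, the B cell antigen Ms4a1 was at no more than 0.0424 FPKM and the T cell receptor component Cd3e at no more than 0.11 FPKM. Ptprc, carried by all leukocytes, was at 0.0903 to 0.319 FPKM. No marker of the macrophage, dendritic cell, B cell or endothelial list was called in any comparison with all mice. Without mice 22, 24 and 28, 5 of 12 macrophage markers tested were called in WT_B over WT_A, where 33.8% of all genes were called. Cd163 (0.79), Mrc1 (0.78) and Lyve1 (0.56) were higher in WT_B, and C1qb (-0.48) and Lyz2 (-0.37) lower on the log2 scale. Of 11 endothelial markers 2 were called, with Emcn (0.65) higher and Cldn5 (-0.84) lower. For WT_B over WT_F without mouse 28, 2 of 12 macrophage and 1 of 11 endothelial markers were called, where 20.7% of all genes were. Cd163 (0.41) and Emcn (0.34) were higher in WT_B and Lyz2 (-0.42) lower. The part of these cells in the class II values was not tested.

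Further genes of the pathway were counted from lists. With all mice, 0 of 16 further class I processing genes and 0 of 8 class II processing genes were called in each comparison. Their median log2 fold changes in WT_B over WT_A were -0.14 and -0.26, beside -0.04 over all genes. The same count was 0 for 17 factors that bind MHC promoters, for 21 or 22 interferon-inducible genes and for 4 MHC-like genes outside the H2 region. Without mice 22, 24 and 28, 12 of the 16 class I processing genes were called in WT_B over WT_A, against 33.8% of all genes, and the median of the 16 was -0.34, beside -0.07 over all genes. Of these, 8 were lower in WT_B, among them the proteasome subunit Psmb5 (-0.83) and the immunoproteasome subunits Psmb10 (-0.66), Psmb8 (-0.65) and Psmb9 (-0.50), and the tapasin-related Tapbpl (-0.47), which edits peptides on class I. The 4 that were higher were the chaperones Canx (0.84) and Hspa5 (0.53), the disulfide isomerase Pdia3 (0.82) and the peptide trimming enzyme Erap1 (0.79). Of 8 class II processing genes, 4 were lower (Ctsd, Ctsh, Ctsl and Lgmn, which are lysosomal proteases) and 0 higher, where 16.7% of all genes were called lower. Of 21 interferon-inducible genes 3 were called, a share below the 33.8% of all genes, with Iigp1 and Gbp4 higher in WT_B and Bst2 lower.

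H2-Q10, a class I heavy chain that hepatocytes secrete, has a mean under 1 FPKM and was singled out after its values were seen. It was at 2.32 FPKM in WT_A mouse 22, from 322 fragments, and at 0.0091 to 0.102 FPKM in the other 13 hearts. In the same library Alb was at 63.0 FPKM, Apoa1 at 25.7 FPKM and Ttr at 12.0 FPKM, where the other hearts had at most 3.64, 1.77 and 0.879 FPKM. The 12 liver markers of a list chosen once these values were known summed to 270 FPKM in mouse 22, 10.8 FPKM in WT_A mouse 23 and 0.789 to 3.25 FPKM in the other 12. H2-K1 and H2-D1 in mouse 22 were at 39.4 and 67.8 FPKM, within the range of the other hearts. The part of liver RNA in the H2-Q10 value was not tested.

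**Figure D5:**
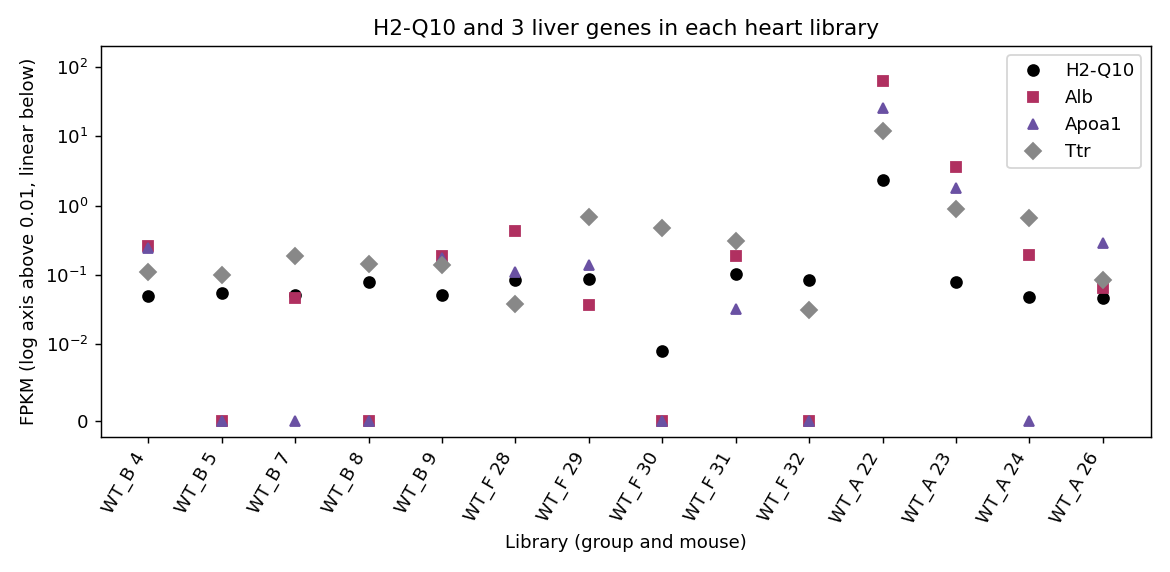
FPKM of H2-Q10, Alb, Apoa1 and Ttr in each of the 14 libraries (axis logarithmic above 0.01 FPKM and linear below). All 4 genes peak in WT_A mouse 22, with H2-Q10 at 2.32 FPKM.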

How the data were processed

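Heart RNA-Seq of 14 WT mice in 3 groups was used, with groups taken from the sample labels. The deposited values are FPKM, which the authors made from fragments counted per gene with featureCounts 1.5.0-p3 on GRCm39; the aligner is not given in the sources used here. The authors ran DESeq2 for their own comparisons. Of 56748 identifiers, 52073 were named with GENCODE M21. Fragments were recovered from the FPKM steps and M21 gene lengths; 90.3% to 92.0% of low values came out whole within 0.02 fragments. Depth limits low genes, and recovered fragments cover counting error only. Whether libraries keep the strand is not settled, so overlapping genes and near-identical copies may share fragments.

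log2(FPKM + 1) was tested with limma 3.58.1 (intensity trend, two-sided) in R 4.3.3, with Benjamini-Hochberg adjustment over all genes and a threshold of 0.05; the code was tested on simulated data. Ratios were tested by exact permutation. Python 3.11.15, with pandas 2.3.3 and matplotlib 3.10.9, served for the tables and figures. Every member with a mean of at least 1 FPKM was named; of other lists, called genes or at most the 4 with the smallest p. Other genes were named after their values were seen. The members and lists were chosen with earlier results of these data known. Alternatives were other pseudocounts (0.1 and 5), filters and scalings, array weights, 1 fit of all libraries, a mitochondrial covariate, voom, and leaving out mice.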

Additional observations from a re-analysis of the deposited data

Results flagged for a closer look

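Of 31 measures tested in 3 groups each (93 tests, of which chance flags about 1 in 20), 9 had a heart far from the others of its group. In WT_A, H2-Q10 was at 2.32 FPKM in mouse 22 and at 0.0461 to 0.08 FPKM in the others, and the ratio of B2m to H2-K1 was 4.16 in mouse 22 and 1.73 to 1.91 in the others. The ratio of class I heavy chains to class II chains was 23.8 in WT_A mouse 24 and 3.86 to 7.05 in the others. In WT_B, mouse 4 had the lowest H2-Ab1 (5.79 FPKM, others 8.28 to 9.22) and the lowest H2-DMb1 (0.573 FPKM, others 0.983 to 1.13), and the highest ratio of class I heavy chains to class II chains (7.53, others 3.88 to 4.81). In WT_B, the ratio of Tap2 to Tap1 was 4.08 in mouse 7 (others 2.88 to 2.99) and H2-Q10 was at 0.0779 FPKM in mouse 8 (others 0.0503 to 0.0547). In WT_F, H2-Q10 was at 0.0091 FPKM in mouse 30 (others 0.084 to 0.102). The H2-Q10 flags in WT_B and WT_F rest on few fragments. There were 8 in WT_B mouse 8 (others 4 or 5) and 1 in WT_F mouse 30 (others 8 to 11).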

How the results depend on the processing

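No paired analysis was possible because the groups share no mouse numbers. The count of members called stayed at 0 in WT_F over WT_A under every alternative run. In WT_B over WT_A it was 1 of 18 with all 14 libraries in 1 fit (3.15% of all genes), 5 with array weights (37.7% of all genes) and 9 without mice 22, 24 and 28 (33.8%), and 0 to 4 with single mice left out (4 without mouse 22, 19% of all genes). In WT_B over WT_F it was 10 of 20 with array weights (32.8%), 6 of 19 without mouse 28 (20.7%), and 0 to 6 with single mice left out. It stayed at 0 in both under the other settings.

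All genes called moved more. In WT_F over WT_A (3 with all mice) they were 6 with a pseudocount of 0.1, 9 in 1 fit of all libraries and with array weights, and 1 with no filter, with voom and without the 3 mice. In WT_B over WT_A (41) they were 0 with no filter, 26 with a filter of 2 FPKM, 100 with equal nuclear-encoded sums, 401 in 1 fit, 4811 with array weights, 2 with the mitochondrial covariate, 12 with voom and 4206 without the 3 mice. In WT_B over WT_F (208) they were 20, 35, 4233, 11, 511 and 2645 under no filter, 1 fit, array weights, the covariate, voom and without mouse 28. Single mice left out gave 0 to 4, 0 to 2392 (highest without mouse 22) and 17 to 2645 (highest without mouse 28). Of the calls in WT_B over WT_A, 80.5% were higher in WT_B with all mice, 92.0% with equal nuclear-encoded sums and 49.9% in 1 fit; in WT_B over WT_F 41.3% were, and 68.1% with equal nuclear-encoded sums. That scaling moved the median of all genes in WT_B over WT_A to 0.08, against -0.04.

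H2-Ab1 changed sign. In WT_F over WT_A its log2 fold change was -0.0693 with array weights and -0.30 without the 3 mice (-0.0688 to 0.64 with single mice left out). In WT_B over WT_A it was 0.0293 with a pseudocount of 0.1, 0.0151 with median-of-ratios, 0.0567 with quantile scaling, 0.15 with equal nuclear-encoded sums, 0.72 with the covariate and 0.0374 with voom (-0.43 to 0.28 with single mice left out). In WT_B over WT_F it was 0.0712 with the covariate. H2-T22, H2-K1, H2-D1, H2-T23, H2-DMa and H2-Q6 kept their negative sign in every fit run of the comparison given for them, and B2m its positive sign. Without the 3 mice the log2 ratio of H2-Ab1 to H2-K1 differed by -0.25 for WT_F over WT_A and -0.24 for WT_B over WT_A, and that of Cd74 to B2m by -0.71 and, past an unadjusted 0.05, -0.999. With single mice left out the first ratio ranged from -0.0921 to 0.89, -0.0513 to 0.93 and -0.0602 to 0.21 over the 3 comparisons, and the second from -0.29 to 0.52, -0.36 to 0.45 and -0.29 to 0.10. The number of members free of overlap without the 3 mice was 5 of 19 in WT_F over WT_A (27.4% of all genes), 12 of 18 in WT_B over WT_A (49%) and 4 of 19 in WT_B over WT_F (19%), an alternative added after seeing the data. The causes were not tested. With 5, 5 and 4 hearts, a design of this size limits the precision of each fold change.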

Other observations

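Some H2- genes that the annotation does not class as protein-coding also carried signal. Of 11 such genes, 5 were at 0 in all hearts. H2-Q5, listed as a polymorphic pseudogene, was at 1.21 to 2.82 FPKM in WT_B hearts, 1.37 to 3.85 FPKM in WT_F hearts and 1.34 to 2.71 FPKM in WT_A hearts. H2-K2, listed as a transcribed pseudogene, was at 1.47 to 2.11 FPKM in WT_B hearts, 1.24 to 2.35 FPKM in WT_F hearts and 0.834 to 1.28 FPKM in WT_A hearts. Both resemble the classical heavy chains in sequence, and fragments may be shared with them. H2-Ea-ps, which stands for the alpha chain of I-E, was at 0 in all 14 hearts, while its partner H2-Eb1 was at 3.30 to 21.9 FPKM. The alpha chain gene of I-E is known to be inactive in C57BL/6 mice.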
